A study of Brassica oleracea var. capitata with 6 samples.

Results

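In 35 annotated cabbage genes, the level in leaves differed at least 10-fold between replicates of the nwgl mutant and also at least 10-fold between replicates of the wild type (WT). These genes were selected on the deposited FPKM values (fragments mapped to a gene, scaled to its transcript length and to all mapped fragments of the library). A gene was a member if its identifier starts with Bol, its mean over the 6 libraries was at least 5 FPKM and, after 0.1 was added to each value, the highest replicate was at least 10 times the lowest within each genotype. Of 27024 annotated genes listed, 8470 had that mean, and the 35 members are 0.413% of these. The ranges within a genotype are what chose the members, so they are given as a description without a test. The members just inside the limit were Bol019821, with a range of 10.03 times in nwgl, and Bol042631, with 10.41 times in WT. Just outside lay Bol027055, with 9.97 times in nwgl, and Bol026330, with 9.55 times in WT.

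Cabbage leaves are covered by a cuticle with waxes on its surface, and a glossy leaf is the visible sign of a changed wax layer. The nwgl (non-wax glossy) plants carry a dominant mutation at a single locus and came from the inbred line G287. Their leaves were compared with WT leaves, both taken at the harvesting stage from field-grown plants, with 3 biological replicates of nwgl and 3 of WT and a directional library for each. The sources do not say whether a replicate was 1 plant or several, nor whether replicates shared a date, a leaf position or a preparation, and the replicate numbers are names only. The 2 tables analysed here pair no Bol identifier with a gene name, and none of the 160 Bol identifiers that the study names in its mapping interval, wax and pathway lists was a member. The function of the members and the leaf markers of the libraries were therefore not checked, and the members appear below by identifier.

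Cabbage genes often exist as several related copies, a legacy of ancient multiplications of the genome of its ancestors, and members of a gene family frequently lie next to each other. Spread between biological replicates of 1 genotype holds whatever differed between the plants sampled and between the preparations of their RNA, and it sets how well 2 genotypes can be compared. A bulk leaf sample gives 1 value per gene, in which fewer cells of a type and less RNA per cell cannot be told apart.

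Depth relative to WT replicate 1 was estimated at 0.892 to 1.02, from the ratios that recur among genes of low FPKM. The search covered only ratios near 1 and counted small whole multiples together, so it could not show a large difference in depth. The libraries differed in the level of the usual gene. Over the 8470 rows of mean 5 FPKM or more, the median level was 9.24, 13.8 and 8.39 FPKM in nwgl replicates 1, 2 and 3, against 11.5, 11.7 and 7.33 FPKM in the WT replicates. The highest value among the nwgl replicates was in replicate 2 for 83.2% of these rows, and the lowest among the WT replicates was in replicate 3 for 69.0%. Over the same rows the median range between replicates was 1.74 times in nwgl and 2.21 times in WT.

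A wide range in 1 genotype was more frequent than in both. In nwgl 147 rows (1.74% of 8470) reached 10 times, and in WT 199 rows (2.35%) did. The members were 23.8% of the nwgl rows and 17.6% of the WT rows. Their mean level was between 5.28 and 50489.9 FPKM with a median of 14.8 FPKM, and 14 of the 35 had a mean under 10 FPKM. The median range of the members was 62.7 times in nwgl and 62.6 times in WT, and the wider range was in nwgl for 18 members and in WT for 17. Where a library lies near 0, the size of the range depends on the 0.1 added.

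**Figure D1:**
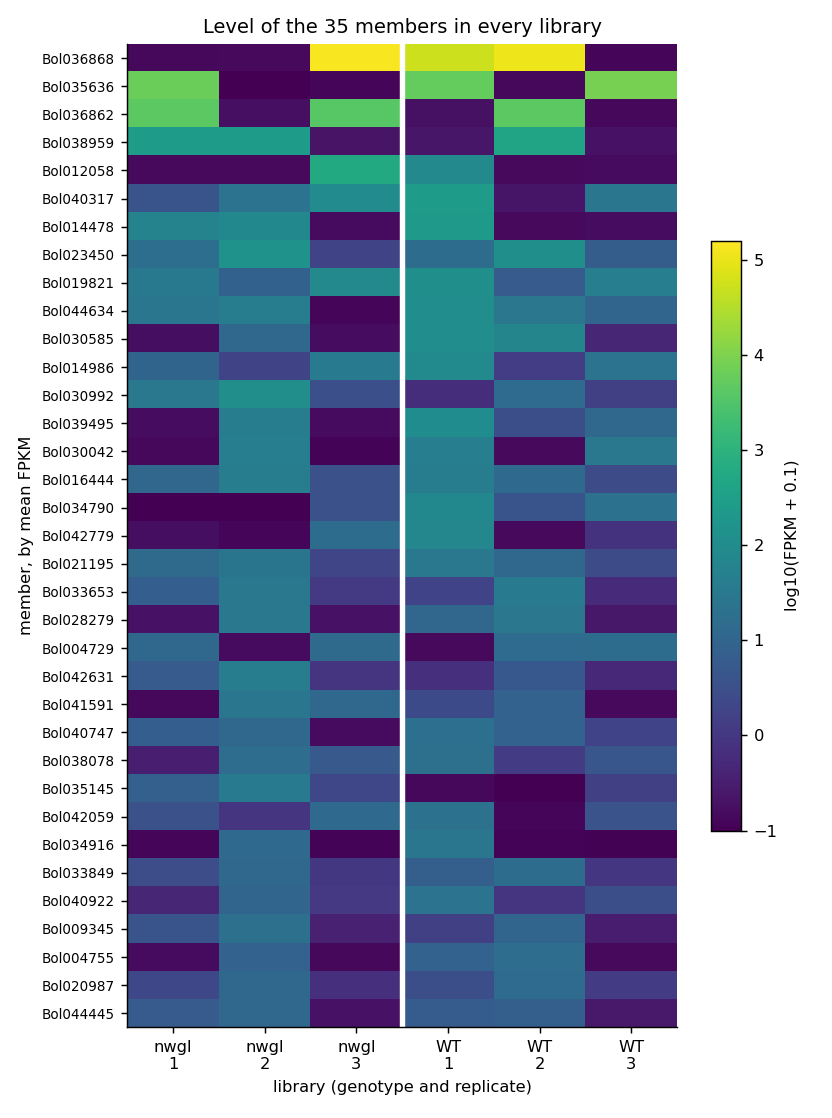
Level of each of the 35 members (one line each, ordered by mean FPKM) in the 3 nwgl and the 3 WT libraries, as log10(FPKM + 0.1) in colour. The 3 members with the highest means were near 0 in 3 libraries each. The highest nwgl library was replicate 2 for 23 of the 35 (65.7%), against 83.2% of all annotated genes with a mean of at least 5 FPKM.

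The members near 0 in some libraries and abundant in others had the widest ranges. In 22 members at least 1 library lay under 0.2 FPKM, while 115 of the 8470 rows (1.36%) had such a library, and in 14 members this was so in both genotypes. The rule favours low libraries, since it asks for a wide range in both genotypes on these same values. For 13 members every library was either under 0.2 FPKM or at 5 FPKM or more, limits chosen after the values were seen. Their low libraries lay between 0.00212 and 0.159 FPKM and their high libraries at 5.92 FPKM or above. Among all 8470 rows 43 had this all-or-none form, of which 29 were near 0 in libraries of 1 genotype only. A further 14 were near 0 in some library of both genotypes.

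**Figure D2:**
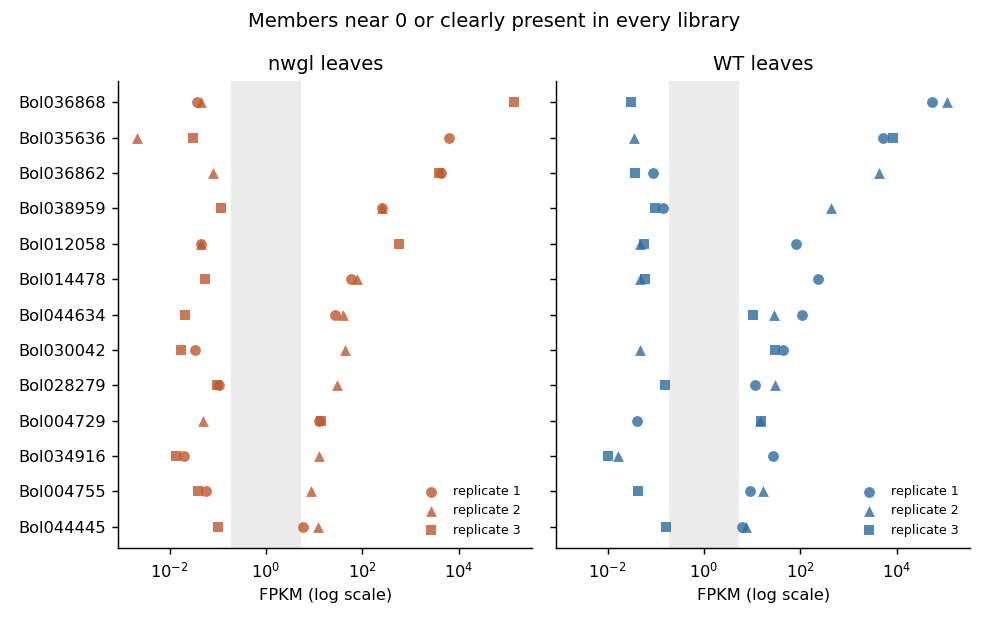
FPKM on a log scale of the 13 members whose libraries were all either under 0.2 FPKM or at 5 FPKM or more, in nwgl leaves (left) and WT leaves (right), with 1 symbol per replicate and the empty interval shaded. The replicates that were near 0 changed from member to member.

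The most abundant member, Bol036868, was listed at 0.0367, 0.0459 and 138778 FPKM in nwgl replicates 1, 2 and 3, against 53289.7, 110872 and 0.0306 FPKM in the WT replicates. It was thus near 0 in 2 of 3 nwgl libraries and in 1 WT library, and the genotypes overlapped. Bol036868 alone made up 30.7% of the summed FPKM of nwgl replicate 3, against 12.9% and 25.4% in WT replicates 1 and 2. All members together took 3.88%, 0.320% and 31.8% of the summed FPKM in the nwgl libraries, against 14.6%, 26.6% and 2.84% in the WT libraries. Without Bol036868 the other members took between 0.320% and 3.88%. FPKM is scaled to the fragments of a library, so that a gene with a large share of them lowers the others. A share of summed FPKM is not a share of fragments, and whether Bol036868 lowered the others was not tested. Of the 23 annotated genes with a mean of at least 1000 FPKM, 3 were members.

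The other members of this level were near 0 in other libraries. Bol035636 had 6421, 0.00212 and 0.0306 FPKM in the nwgl replicates, against 5330.1, 0.0358 and 8605 FPKM in the WT replicates. Bol036862 had 4393, 0.0787 and 3954 FPKM in the nwgl replicates, against 0.0875, 4322 and 0.0368 FPKM in the WT replicates. Where these genes were present, their level was alike. The high libraries of Bol036862 lay between 3954 and 4393 FPKM and those of Bol035636 between 5330.1 and 8605 FPKM, in both genotypes.

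Below these, Bol038959 had 261, 257 and 0.115 FPKM in the nwgl replicates, against 0.143, 427 and 0.0987 FPKM in the WT replicates. Bol012058 was high in 1 library of each genotype, with 0.0448, 0.0440 and 584 FPKM in the nwgl replicates, against 82.1, 0.0462 and 0.0557 FPKM in the WT replicates. Bol014478 had 57.6, 79.2 and 0.0553 FPKM in the nwgl replicates, against 230.5, 0.0475 and 0.0612 FPKM in the WT replicates. In these 3 genes every library that was not near 0 was at 57.6 FPKM or more. Bol044634 was near 0 only in nwgl replicate 3, with 27.4, 39.6 and 0.0211 FPKM in the nwgl replicates, against 109, 28.5 and 10.3 FPKM in the WT replicates.

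Of the all-or-none members of lower level, 4 were near 0 in replicate 3 of both genotypes. Bol028279 had 0.105, 30.5 and 0.0972 FPKM in the nwgl replicates, against 11.2, 29.4 and 0.154 FPKM in the WT replicates. Bol004755 had 0.0558, 8.57 and 0.0382 FPKM in the nwgl replicates, against 8.90, 16.6 and 0.0432 FPKM in the WT replicates. Both were thus present in nwgl replicate 2 and in WT replicates 1 and 2 only, and their log2(FPKM + 0.1) values had Pearson's r = 0.990 over the 6 libraries. Bol044445 was near 0 in nwgl replicate 3 and WT replicate 3 only, with 5.92, 11.9 and 0.0999 FPKM in the nwgl replicates, against 6.17, 7.44 and 0.159 FPKM in the WT replicates. Bol034916, the last of the 4, was high in 1 library of each genotype, with 0.0201, 12.8 and 0.0136 FPKM in the nwgl replicates, against 26.7, 0.0168 and 0.0101 FPKM in the WT replicates.

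The remaining all-or-none members mirrored others of the set. Bol004729 had 12.4, 0.0484 and 13.9 FPKM in the nwgl replicates, against 0.0406, 14.8 and 15.7 FPKM in the WT replicates. It was near 0 in nwgl replicate 2 and WT replicate 1, the libraries in which Bol034916 was high, and r between the 2 genes was -0.996. Bol030042 had 0.0336, 43.7 and 0.0175 FPKM in the nwgl replicates, against 43.9, 0.0465 and 30.4 FPKM in the WT replicates. It was high in the 3 libraries in which Bol036862 was near 0 and near 0 in the 3 in which Bol036862 was high, with r = -0.998. These pairs were picked after their values were seen. Among the 595 pairs of members, 3 had r of -0.9 or less and 32 (5.38%) had r of 0.9 or more. With 6 libraries that all members share, these coefficients are descriptions, and that of a gene near 0 in some libraries rests mostly on which libraries those are.

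The other 22 members did not have this form. Their median range was 30.5 times in nwgl and 21.1 times in WT, against 372 and 301 times for the all-or-none members. Of the 22, 13 had no library under 0.2 FPKM. The rest, such as Bol030585, were near 0 in some library and between 0.2 and 5 FPKM in another. The 5 of the 22 with the highest means were the following. Bol040317 had 3.95, 23.1 and 97.3 FPKM in the nwgl replicates, against 259, 0.125 and 26.8 FPKM in the WT replicates. Bol023450 had 17.2, 144 and 1.77 FPKM in the nwgl replicates, against 15.4, 126 and 6.48 FPKM in the WT replicates. Bol023450 was thus highest in replicate 2 of both genotypes, at similar levels.

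Bol019821 had 32.1, 8.30 and 84.1 FPKM in the nwgl replicates, against 123.3, 6.07 and 45.2 FPKM in the WT replicates. Bol030585 had 0.0689, 12.3 and 0.0611 FPKM in the nwgl replicates, against 109, 65.5 and 0.356 FPKM in the WT replicates. Bol014986 had 9.64, 1.75 and 36.6 FPKM in the nwgl replicates, against 93.2, 1.24 and 22.6 FPKM in the WT replicates. Bol019821 and Bol014986 followed each other more closely than any other pair of members, with r = 0.994. Both were lowest in replicate 2 of both genotypes and highest in nwgl replicate 3 and WT replicate 1.

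The members were spread over 14 orders of the replicates. The 4 most frequent held 24 of the 35 (68.6%), and the other 11 members had 10 orders. The same 4 orders held 43.4% of the 8470 rows, whose own 4 most frequent orders held 62.7%. The most frequent was replicate 2 above 1 above 3 in both genotypes, with 9 members (25.7%, against 16.3% of the 8470 rows). These were Bol004755, Bol009345, Bol020987, Bol023450, Bol028279, Bol033653, Bol033849, Bol042631 and Bol044445, and r between them was 0.443 to 0.990 with a median of 0.863. In Bol004755 and Bol028279 nwgl replicates 1 and 3 were both near 0, so that their order rests on very small values. The nearest to the median of the 9 members were Bol023450 and the following members. Bol009345 had 3.93, 19.1 and 0.268 FPKM in the nwgl replicates, against 1.38, 10.4 and 0.220 FPKM in the WT replicates. Bol020987 had 2.13, 12.6 and 0.567 FPKM in the nwgl replicates, against 2.96, 14.8 and 1.11 FPKM in the WT replicates. Both stayed above 0.2 FPKM in every library and were highest in replicate 2.

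**Figure D3:**
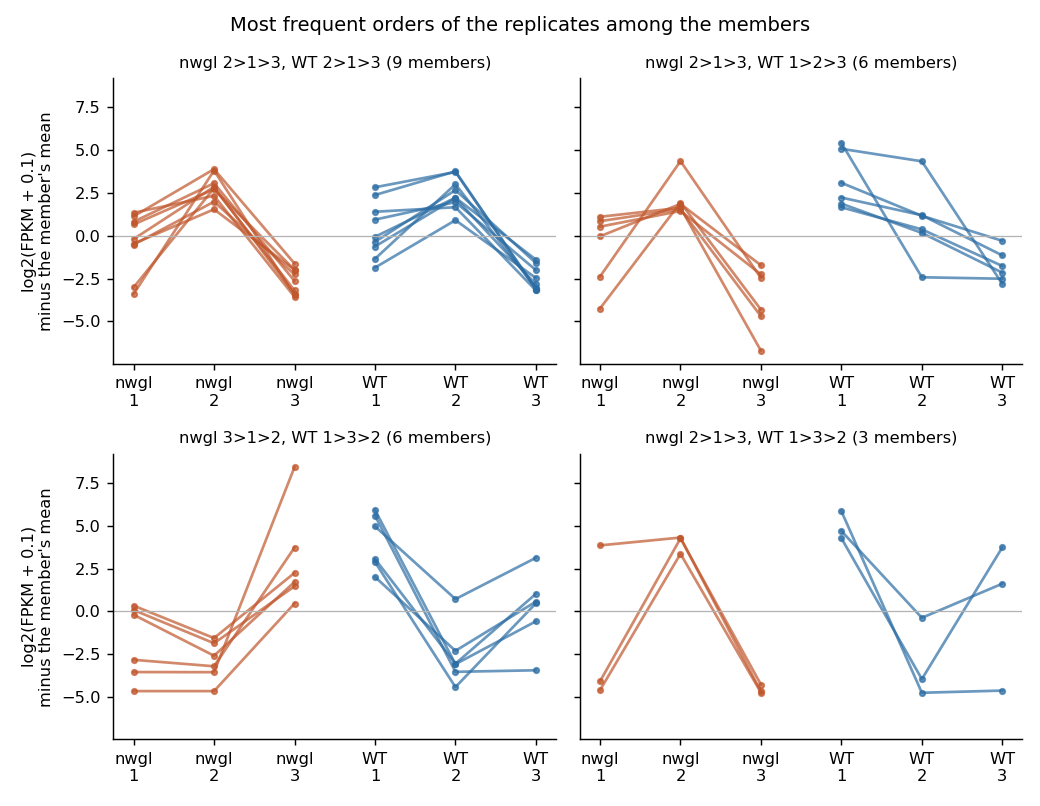
Values of the members in the 4 most frequent orders of the replicates (9, 6, 6 and 3 members), as log2(FPKM + 0.1) minus the mean of the member over the 6 libraries, with nwgl libraries left of WT libraries and a line per member. The 6 members at the lower left were lowest in replicate 2 of both genotypes, in contrast to the 9 members at the upper left. In some of the 6, another nwgl replicate was also near 0.

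This order was also frequent over all rows, and the rule sets the members apart from these by their range. The other 1375 rows with the same order had a median range of 2.09 times in nwgl and 1.94 times in WT, and 136 of them reached 3 times in both. After median-of-ratios scaling of the libraries the order was held by 8 of the 35 members (22.9%) and by 4.14% of the rows. When the members were themselves chosen on values scaled in this way, or on quantile-normalized values, 3 held it. The second pattern, replicate 2 above 1 above 3 in nwgl and 1 above 2 above 3 in WT, was shared by 6 members (17.1%, against 24.8% of the rows). These were Bol016444, Bol021195, Bol030585, Bol034916, Bol040747 and Bol044634. Bol021195, the nearest to their median, had 13.8, 26.1 and 1.91 FPKM in the nwgl replicates, against 30.4, 12.4 and 2.73 FPKM in the WT replicates. Bol016444 had 11.2, 41.7 and 3.38 FPKM in the nwgl replicates, against 42.2, 12.8 and 2.48 FPKM in the WT replicates. Bol040747 had 7.02, 11.5 and 0.0511 FPKM in the nwgl replicates, against 18.4, 8.95 and 1.68 FPKM in the WT replicates. All 6 were lowest in replicate 3 of both genotypes, in Bol030585 and Bol034916 by very small differences in nwgl.

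The third pattern ran against most rows of the table. The order replicate 3 above 1 above 2 in nwgl and 1 above 3 above 2 in WT was held by 6 members (17.1%), against 54 of the 8470 rows (0.638%). They were Bol012058, Bol014986, Bol019821, Bol034790, Bol042059 and Bol042779, with r of 0.366 to 0.994 between them (median 0.749). Bol042059 had 3.32, 0.819 and 12.8 FPKM in the nwgl replicates, against 19.9, 0.0263 and 3.66 FPKM in the WT replicates. Bol042779 had 0.0666, 0.0282 and 15.6 FPKM in the nwgl replicates, against 72.3, 0.0398 and 0.693 FPKM in the WT replicates. Bol034790 was listed at 0 in nwgl replicates 1 and 2, so that its order in nwgl is a tie. Between the 9 members of the first pattern and these 6, r was -0.881 to 0.0965 with a median of -0.560. The patterns are orders of the same values from which r was computed. The sign of r within and between them therefore follows in part from the grouping.

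The scaling of the libraries changed the background of the third pattern more than its members. After median-of-ratios scaling 6 of the 35 members held the order, against 3.79% of the rows, and after quantile normalization 5 did, against 3.73%. The 48 other rows with this order had median ranges of 1.91 times in nwgl and 3.15 times in WT, and 7 reached 3 times in both. Bol027055, just outside the limit, was of this form, with 11.3, 2.38 and 24.6 FPKM in the nwgl replicates, against 81.0, 2.06 and 15.2 FPKM in the WT replicates. Replicate 2 was lowest in both genotypes for 7 members (20%), against 90 rows (1.06%). In Bol012058, Bol034790, Bol035636 and Bol042779 another nwgl replicate was also near 0. Which nwgl replicate was lowest in these genes thus rests on very small values or on a tie. In Bol012058 the order of WT replicates 2 and 3, at 0.0462 and 0.0557 FPKM, rests on very small values too. With the members' values scaled to the median of ratios, replicate 2 was again lowest in both genotypes for 7 members, against 9.68% of the rows.

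The fourth pattern, replicate 2 above 1 above 3 in nwgl and 1 above 3 above 2 in WT, was that of Bol014478, Bol030042 and Bol039495 (8.57%, against 1.59% of the rows). Bol039495 had 0.0630, 40.8 and 0.0481 FPKM in the nwgl replicates, against 103, 2.96 and 12.1 FPKM in the WT replicates. Like Bol030042, it was near 0 in nwgl replicates 1 and 3. Where several libraries were near 0, their order rests on very small values.

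Of the 11 members outside these orders, 5 were highest in nwgl replicate 2 within that genotype. Bol041591 had 0.0379, 27.2 and 11.5 FPKM in the nwgl replicates, against 2.38, 8.85 and 0.0429 FPKM in the WT replicates. Bol038078 and Bol040922 shared the order replicate 2 above 3 above 1 in nwgl and 1 above 3 above 2 in WT, with 16.8 and 10.6 FPKM in nwgl replicate 2, against 19.7 and 22.4 FPKM in WT replicate 1. Over all 35 members, nwgl replicate 2 was the highest nwgl library in 23 (65.7%, against 83.2% of the rows), and WT replicate 1 the highest WT library in 18 (51.4%, against 45.4%). In nwgl a single replicate stood high in 18 members, the middle one lying nearer to the lowest, and a single replicate stood low in 17. In WT 17 members had 1 replicate high and 18 had 1 low. Over the 8470 rows 1 replicate stood high in 69.4% in nwgl and in 42.4% in WT.

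Neighbouring identifiers were compared next. Members were not neighbours of each other, since no 2 members had numbers that differed by 3 or less. Only Bol036862 and Bol036868 lay within 10 numbers, and their coefficient did not reach -0.8. Each member was therefore compared with every annotated gene of mean 1 FPKM or more within 3 numbers, a comparison chosen after the values were seen. Of 116 such pairs 3 had r of -0.8 or less (2.59%, against 1.54% of 22951 such pairs over all annotated genes), and 9 had r of 0.8 or more (7.76%, against 11.6%). That close numbers mean close positions was taken from the numbering and was not checked on the genome.

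The lowest coefficient, r = -0.991, was that of Bol030042 and Bol030043. Bol030043 had 14.4, 4.52 and 16.0 FPKM in the nwgl replicates, against 4.71, 18.6 and 5.03 FPKM in the WT replicates. It was at 4.52 to 5.03 FPKM in the 3 libraries in which Bol030042 was high and at 14.4 to 18.6 FPKM in the 3 in which Bol030042 was near 0. The sum of both genes lay between 14.4 and 48.7 FPKM and ranged 3.34 times in nwgl and 2.61 times in WT. Bol030042 alone ranged 372 times in nwgl and 301 times in WT. The smaller range of Bol030042 was 43.0 times with 1 added in place of 0.1, and 779 times with 0.01 added.

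The other opposed neighbours moved little themselves. Bol019819, at r = -0.890 with Bol019821, had 5.17, 6.19 and 5.16 FPKM in the nwgl replicates, against 3.37, 7.27 and 4.43 FPKM in the WT replicates. Bol042782, at r = -0.807 with Bol042779, had 10.96, 9.09 and 7.94 FPKM in the nwgl replicates, against 6.23, 8.98 and 10.8 FPKM in the WT replicates. Their sums with the member ranged 9.50 and 8.70 times over the 6 libraries, and both neighbours ranged 2.12 times or less.

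**Figure D4:**
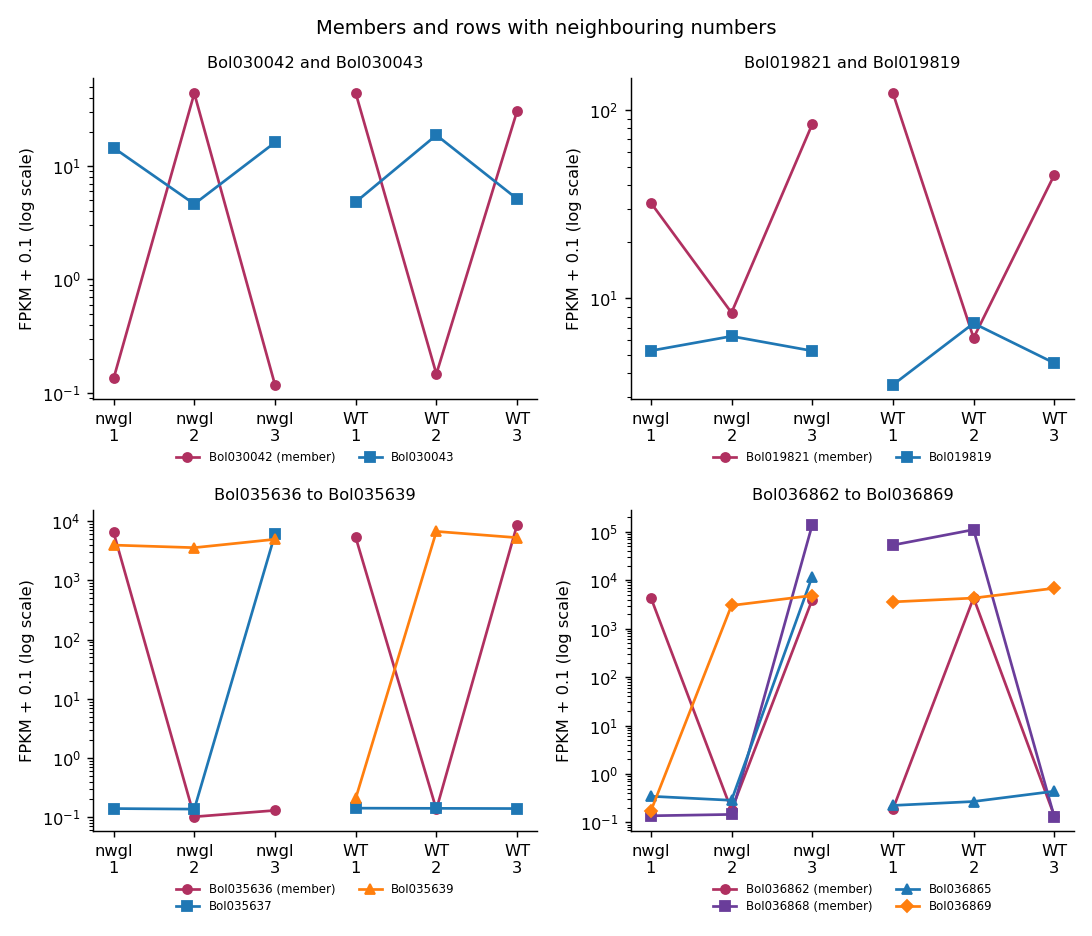
FPKM + 0.1 on a log scale of members and of annotated genes with neighbouring numbers, in the 3 nwgl libraries (left of each panel) and the 3 WT libraries (right). Bol030042 and Bol030043 alternate in all 6 libraries, and in the runs of abundant genes the libraries near 0 differ between rows.

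Near some abundant members, other abundant rows were near 0 in some libraries and not in others. Bol036862 and Bol036868 belong to a run in which Bol036863, Bol036864 and Bol036867 stayed between 894 and 6929 FPKM in all libraries. Bol036865 reached 11930 FPKM in nwgl replicate 3 and was at most 0.339 FPKM in the other 5 libraries. Bol036869 was at 0.0707 FPKM in nwgl replicate 1 and at 3016 FPKM or more in the others. Summed over Bol036862 to Bol036869 without Bol036868, the level of the run ranged 2.82 times among the nwgl replicates and 1.47 times among the WT replicates. With Bol036868, and with Bol036870 at the end of the run, the sum ranged 14.4 times in nwgl and 5.89 times in WT.

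In the run of Bol035636, Bol035637 had 5966 FPKM in nwgl replicate 3, a library in which Bol035636 was near 0, and at most 0.0426 FPKM elsewhere. Bol035639 was near 0 only in WT replicate 1, at 0.108 FPKM, and between 3557 and 6688 FPKM in the other libraries. Summed over the 4 rows from Bol035636 to Bol035639, the level was 10351, 3557 and 10889.8 FPKM in the nwgl replicates, against 5330.3, 6688 and 13851 FPKM in the WT replicates, a range of 3.06 times in nwgl and 2.60 times in WT.

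Next to Bol012058, Bol012059 had between 22415.5 and 46706 FPKM in 5 libraries and 0.192 FPKM in WT replicate 1, the only WT library in which Bol012058 was high. In nwgl replicate 3 both were high. Their sum ranged 1.54 times in nwgl and 568 times in WT. Beside Bol004729, Bol004734 was near 0 in nwgl replicate 2 and WT replicate 2, with 2.76, 0.0401 and 3.13 FPKM in the nwgl replicates, against 6.58, 0.0301 and 4.26 FPKM in the WT replicates. Bol004729 was near 0 in the same nwgl library but in another WT library. These runs were chosen after their values were seen. The tables give no transcript lengths, so levels of different genes are compared only as FPKM. Which members have a near-identical copy is not known from the sources used here, nor how fragments matching several genes were assigned, and the values of such genes are uncertain.

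Neighbours that moved together with a member were more frequent than opposed ones, as was also so over all annotated genes. Their share, 9 of 116 pairs (7.76%), was below the 11.6% over all annotated genes. Bol035146 followed Bol035145 at r = 0.903, with 4.85, 10.3 and 1.15 FPKM in the nwgl replicates, and was listed at 0 in all WT libraries. Bol033852 followed Bol033849 at r = 0.922, with a range of 2.18 times over the 6 libraries against 11.6 times in nwgl and 15.7 times in WT for the member. Bol044446 followed Bol044445 at r = 0.903, and Bol009342, Bol009344 and Bol009347 followed Bol009345 at r of 0.801 to 0.848. In 5 of these 6 neighbours no library was at 0. Bol023447, Bol042628 and Bol030989 followed Bol023450, Bol042631 and Bol030992 at r of 0.813 to 0.858.

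The members were then compared between genotypes. With limma on log2(FPKM + 0.1) and Benjamini-Hochberg adjustment over 24332 genes, 1190 genes passed an adjusted p of 0.05 and a log2 fold change of 1 in size, which is 4.89% of those tested. Of the 35 members 2 passed (5.71%), 1 higher and 1 lower in nwgl. The same 2 were the only members whose genotypes did not overlap, against 20.3% of the genes tested. At an unadjusted p under 0.05 there were 3 members (8.57%), against 16.2% of the genes. The rule asks for spread within each genotype, and the median standard error of a member was 1.62 on the log2 scale, against 0.51 for all genes tested.

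Bol035145 was higher in nwgl, with 7.75, 34.0 and 1.98 FPKM in the nwgl replicates, against 0.0362, 0 and 1.38 FPKM in the WT replicates. The lowest nwgl library lay above the highest WT library, by 1.98 to 1.38 FPKM. This is 4.92 ± 1.17 (SE) on the log2 scale, nwgl over WT, with an adjusted p of 0.0456 in limma (n = 3 each). Bol034790 was lower in nwgl, listed at 0, 0 and 3.38 FPKM in the nwgl replicates, against 79.0, 4.06 and 22.1 FPKM in the WT replicates. On the log2 scale this is -5.89 ± 1.42 (SE), with an adjusted p of 0.0485 in limma (n = 3 each). The gap between the genotypes was 3.38 against 4.06 FPKM. The mean in the lower genotype was 0.471 FPKM for Bol035145 (WT) and 1.13 FPKM for Bol034790 (nwgl). Each gene thus met the limit on the mean, 5 FPKM over all libraries, only through its higher genotype. A gene this low in 1 genotype is a member only if it is high in the other. The selection therefore favoured a difference in such genes, and the 2 calls are not independent of it.

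Both calls lay close to the limit. Neither gene passed with a pseudocount of 1 or 0.01, with another filter on low values, with median-of-ratios scaling, with quantile normalization or without the trend in the variance, where the adjusted p from limma was 0.0530 to 0.149. With 1 library left out the adjusted p from limma was 0.0145 to 0.177 for Bol035145, which passed without nwgl replicate 3 or WT replicate 3 (log2 fold change 3.89 to 6.14). It was 0.00407 to 0.190 for Bol034790, which passed only without nwgl replicate 3 (log2 fold change -7.60 to -4.88). The direction was the same in every fit of either gene. Membership of both genes also depended on the pseudocount. Each was listed at 0 in some library of its lower genotype, so that the range there rests on the value added. The smaller range within a genotype was 14.77 times for Bol035145 and 19.03 times for Bol034790. With a pseudocount of 1 these were 2.38 and 4.38 times, too small for a member, and with 0.01 they were 17.04 and 19.43 times.

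**Figure D5:**
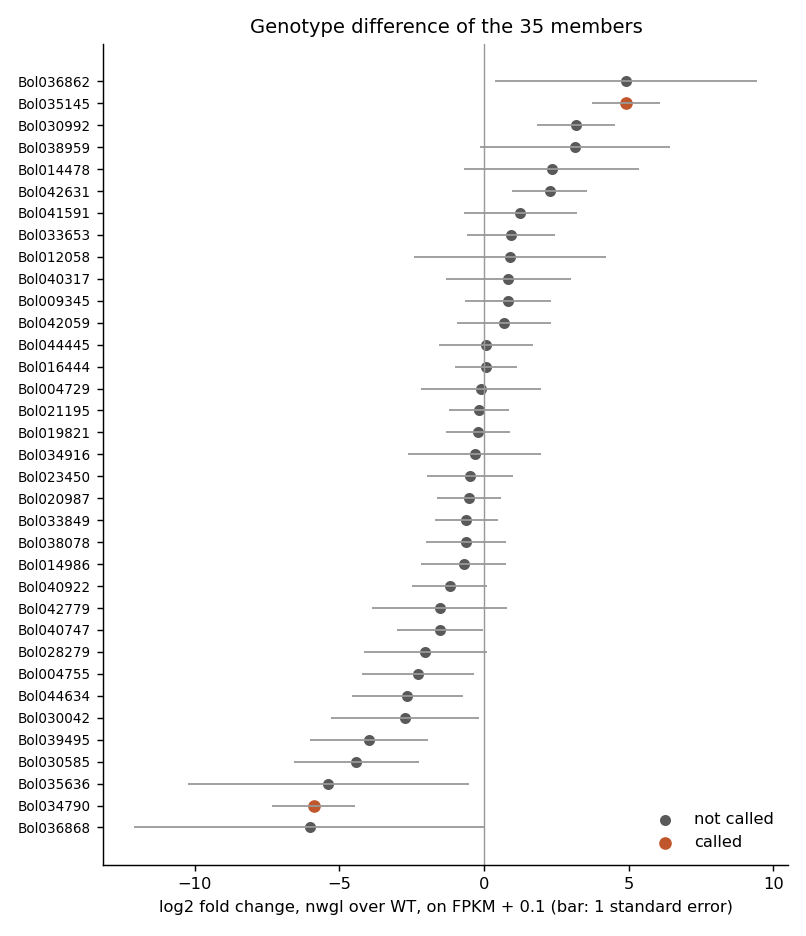
Log2 fold change of nwgl over WT on FPKM + 0.1 for each of the 35 members, with 1 standard error on each side, from the limma fit over all genes. Bol035145 (4.92) and Bol034790 (-5.89) were called, while members with fold changes as large, such as Bol036868 (-6.03), had wider errors.

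Other members had fold changes as large without a call. The log2 fold change of Bol036868 was -6.03 ± 6.05 (SE), with an adjusted p of 0.759 in limma. That of Bol036862 was 4.92 ± 4.53 (SE), with an adjusted p of 0.725 in limma. Bol030992 had 29.6, 114 and 3.14 FPKM in the nwgl replicates, against 0.561, 14.6 and 1.42 FPKM in the WT replicates, and its genotypes overlapped. It differed by 3.18 ± 1.36 (SE) on the log2 scale, with an adjusted p of 0.283 in limma. Fold changes were above 0 in 14 members and below 0 in 21. A member that was not called is not shown to be equal in both genotypes, since errors of this size leave large differences undetected.

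The same limits were applied to rows that the rule left out. Among new loci of the assembly, 8 of 403 with a mean of at least 5 FPKM passed (1.99%), and among transcripts of long noncoding RNAs (lncRNAs) 3 of 49 did (6.12%), against 0.413% of the annotated genes. The lncRNA values are per transcript and the others per gene, so these shares are not directly comparable, and 3 is a small count. Kohlrabi_newGene_19739 had 22.8, 599 and 21.1 FPKM in the nwgl replicates, against 12.5, 478 and 15.9 FPKM in the WT replicates, and was high in replicate 2 of both genotypes. Kohlrabi_newGene_22952 had 247 FPKM in nwgl replicate 1 and was listed at 0 in the other nwgl replicates, against 306, 1046 and 0 FPKM in the WT replicates. The lncRNA MSTRG.78031.2 had 0.591, 0.269 and 28.0 FPKM in the nwgl replicates, against 27.0, 0 and 0 FPKM in the WT replicates. It was high in nwgl replicate 3 and WT replicate 1, as were the 6 members of the third pattern. These 3 rows were chosen after their values were seen.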

How the data were processed

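The authors aligned the reads of the 6 directional leaf libraries to the Bolbase cabbage genome with HISAT2 and, per the submitters' processing notes, used StringTie 1.3.1; they deposited FPKM for 31497 genes and new loci and for 4459 lncRNA transcripts. FPKM is scaled to transcript length and to the fragments of a library, not for a few genes with a large share; read counts and transcript lengths were not used here, so counting error could not be computed and precision was judged from the replicates. The members and lists were chosen with earlier results of these data known. All values were used as deposited, with 0.1 added before logs and ratios. Genotypes were compared with limma 3.58.1 (lmFit, eBayes with trend) in R 4.3.3 on rows with a mean of at least 0.1 FPKM, with Benjamini-Hochberg adjustment, and called where the adjusted p was under 0.05 and the fold change at least 1 in size on the log2 scale; the fit was tested on simulated data. These fold changes understate those of genes near 0. Python 3.11.15 with numpy 2.4.6, pandas 2.3.3 and matplotlib 3.10.9 did the rest. The genes named are the members with the highest mean or the widest range, those nearest the median of a frequent order, called members, rows at the limit and neighbours with r of -0.8 or less or 0.8 or more; other rows were named after their values were seen. RefSeq's cabbage gene table (53125 rows) held 0 of the Bol identifiers.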

Additional observations from a re-analysis of the deposited data

How the results depend on the processing

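The number of members follows the limits. It was 17 with a pseudocount of 1, 82 and 21 with a mean of at least 1 and 10 FPKM, 99 with no minimum, and 106 and 21 with a ratio of 5 and 20. Median-of-ratios scaling and quantile normalization gave 28 each, 25 of the 35 members being among them under either. With a library left out, which leaves 2 replicates to pass the limit, 11 (without nwgl replicate 2) to 30 genes met the rule, 12 without nwgl replicate 3, 14 without WT replicate 2, 19 without WT replicate 1 and 20 without WT replicate 3, of which 19 were among the 35. The genotype comparison by limma called 777 genes with a pseudocount of 1, 761 with no filter and 735 with a mean of at least 1 FPKM, and 403 to 1327 with a library left out (403 without nwgl replicate 1, 520 without nwgl replicate 2, 588 without WT replicate 1). No member (0) was called under 7 settings that kept all libraries, with 2 or 3 members at an unadjusted p under 0.05, and 0 to 2 were called with a library left out. The sources do not say that replicate numbers pair the samples, and the deviations from the group means had r of -0.0168, 0.106 and 0.156 for numbers 1, 2 and 3, not all above 0.1, so the fit without pairing was kept. With the number as a block 1314 genes and 1 member were called, Bol034790 at an adjusted p of 0.0423 in limma, while Bol035145 had 0.104. The order replicate 2 above 1 above 3 in both genotypes was held by 3 members of the sets chosen with a pseudocount of 1 or with either scaling, by 17 with a mean of at least 1 FPKM and by 5 with a ratio of 20, and the third order by 3 with a pseudocount of 1 and 2 with a ratio of 20. Opposed pairs of a member and a neighbour, an analysis added after the data were seen, numbered 1 with Spearman's coefficient or with adjacent numbers only, 7 within 10 numbers, 6 with either scaling and 2 to 8 with a library left out (8 without WT replicate 1, 6 without WT replicate 2 or 3). New loci and lncRNAs within the limits numbered 7 with a pseudocount of 1 and 17 with a ratio of 5, against 11, and 8 members had no library under 0.5 FPKM, against 13 with none under 0.2.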
